A study of Mus musculus with 10 samples.

Results

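The genes described here are App and 8 genes whose proteins cut the amyloid precursor protein or form part of an enzyme that cuts it: the beta-secretases Bace1 and Bace2, the gamma-secretase subunits Psen2, Aph1a, Ncstn and Psenen, and the alpha-secretases Adam10 and Adam17. They were chosen by name, by a rule that used no measured value but was set with earlier results of these data known, and all 9 were found among the 12575 genes of the table. RNA from cerebral cortex was sequenced from 5 BMAL1 aKO and 5 Cre- mice. BMAL1 aKO (astrocyte knockout) mice carried Aldh1l1-Cre ERT2 and Bmal1 fl/fl, and their Cre- littermates carried Bmal1 fl/fl without Cre. Both groups received tamoxifen, which activates this Cre, were of strain C57BL/6 and 4 months old by the labels, and came from mixed-sex cohorts kept under a light-dark cycle. The paper gives an older age and fewer BMAL1 aKO mice than the labels, and which library it left out is not given in the sources used here. All 10 labelled libraries were used. The Aldh1l1 promoter drives Cre in astrocytes, so neurons and the other cells of the cortex kept intact Bmal1, and the labels name no amyloid transgene, so App here is the mouse gene. Levels in whole tissue cannot tell apart fewer cells of a type and less RNA per cell.

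The amyloid precursor protein spans the cell membrane and is cut along competing routes. Alpha-secretases cut it within the amyloid-beta stretch and release a soluble ectodomain, whereas beta-secretase cuts at the start of that stretch and leaves a fragment that gamma-secretase then cuts inside the membrane, which frees amyloid-beta. Gamma-secretase is a complex of a presenilin, which holds the catalytic site, with nicastrin, an APH1 subunit and PEN-2. App is expressed strongly by neurons and also by glia. BMAL1, the clock transcription factor that was deleted in astrocytes, binds DNA at E-boxes together with CLOCK.

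The libraries held 21844770 to 48295715 reads, so the members were counted in 92 (Bace2) to 79014 (App) reads per library. Levels are given as CPM, the reads of a gene scaled to the total reads of its library. Some checks of the whole series bear on the values below. Arntl, the gene symbol of Bmal1, ranged over 31.1 to 38.8 CPM in BMAL1 aKO and 31.9 to 37.1 CPM in Cre- libraries, a level that cannot check the genotype, since exons outside the deleted part and cells without Cre add to it. Fabp7, an astrocyte lipid-binding protein gene, ranged over 90.8 to 236.6 CPM in BMAL1 aKO and 9.94 to 19.9 CPM in Cre- libraries, and was 3.52 higher in BMAL1 aKO on the log2 scale (limma, adjusted p = 7.43e-06). The 12 neuronal markers summed to 10476 to 11925 CPM in BMAL1 aKO and 10823 to 11950 CPM in Cre- libraries, and the 12 astrocyte markers to 7572 to 9246 CPM in BMAL1 aKO and 6508 to 7975 CPM in Cre- libraries. Cre- replicates 3 and 4 stood apart from the others. Mitochondrial-encoded genes took 6.19% and 9.29% of their reads, against 13.4% to 19.9% in the other 8 libraries. In the fit, which gives less weight to libraries that deviate more, they received weights of 0.188 and 0.544. The fit without both of these libraries, used below, was chosen after seeing the data and is a description only. Cre- replicate 2, which had the largest mitochondrial-encoded share, had a weight of 0.490, and the largest weight was 4.04 for Cre- replicate 1. The 10 markers of striatum, the tissue below the cortex, summed to 834 to 1465 CPM in BMAL1 aKO and 580 to 2498 CPM in Cre- libraries, with the maximum in Cre- replicate 3.

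None of the 9 genes differed between BMAL1 aKO and Cre- cortex past the threshold. With limma, Benjamini-Hochberg adjustment over all genes and a threshold of 0.1, 0 of 9 members were called, against 0.167% of the 12573 genes tested (21 genes). At an unadjusted p under 0.05, 1 of 9 members passed (Bace2, higher in BMAL1 aKO), against 11.8% of all genes. BMAL1 aKO and Cre- libraries overlapped for every member, while 1% of all genes had groups without overlap. The median log2 fold change was -0.07 over the members and -0.04 over all genes tested, with 4 members above 0 and 5 below. These values are from CPM without TMM scaling. With TMM scaling, which the study used, the median over all genes was -0.002, again with 4 members above 0 and 5 below. The 5 were then App at -0.09, Bace1 at -0.11, Aph1a at -0.25, Ncstn at -0.06 and Adam10 at -0.04. The 13 mitochondrial-encoded markers all had a log2 fold change above 0 in the fit as reported, with a median of 0.32. A related weighted limma fit, voomWithQualityWeights on the reads recovered from the CPM, also called 0 members. Again Bace2 alone was under an unadjusted p of 0.05. In limma without weights, 0 members had an unadjusted p under 0.05. The count over all genes depended on single libraries, from 1 gene without Cre- replicate 1 to 72 without BMAL1 aKO replicate 3, and the count of members was 0 in each of these fits.

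**Figure D1:**
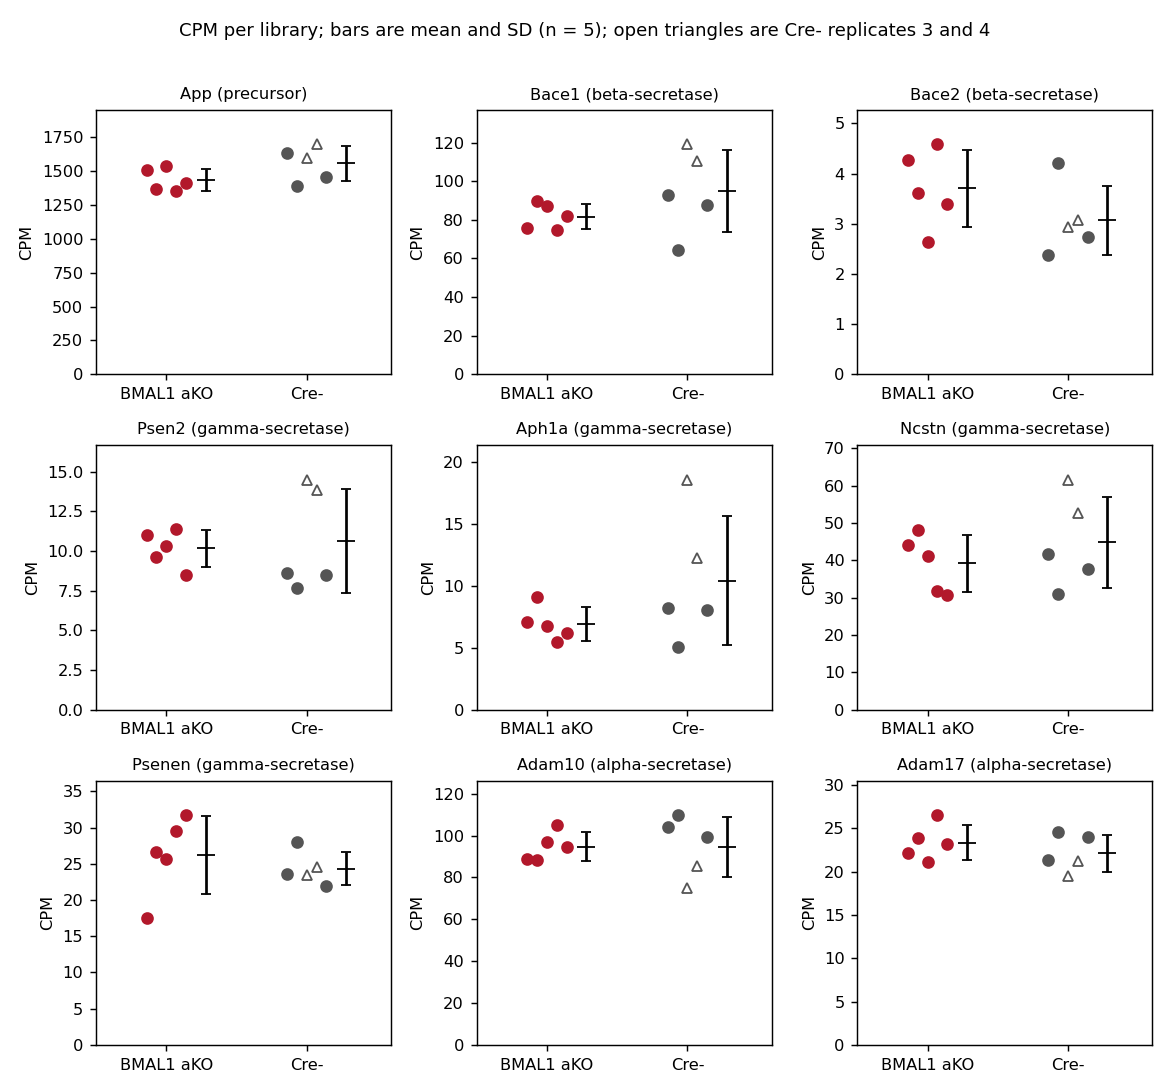
CPM of the 9 genes in each library, with BMAL1 aKO (red) and Cre- (grey) on the x axis and the mean and SD of 5 libraries beside each group. The groups overlap in every panel, and Cre- replicates 3 and 4 (open triangles) hold the highest values of Bace1, Psen2, Aph1a and Ncstn.

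App encodes the amyloid precursor protein itself and was by far the most abundant member. It lies on the minus strand at chr16:84949685-85173766 (GRCm38, ENSMUSG00000022892). It had 1507, 1368, 1534, 1354 and 1408 CPM across BMAL1 aKO replicates 1 to 5, against 1636, 1390.3, 1598, 1696 and 1457 CPM across Cre- replicates 1 to 5. Replicates 2 and 4 of BMAL1 aKO lay just below the lowest Cre- library, Cre- replicate 2, and the other 3 lay inside the Cre- range. The means were 1434 ± 81.9 CPM in BMAL1 aKO and 1556 ± 128 CPM in Cre- (SD, n = 5 each), a difference of -7.80%. On the log2(CPM + 0.5) scale the fold change was -0.13 (SE 0.07, 95% interval -0.29 to 0.02, adjusted p = 0.485, limma), and the exact permutation test of the plain log2 means gave p = 0.127. The interval corresponds to 0.819 to 1.02 times the Cre- level. Among the 500 genes nearest in level, the within-group SD of App was at percentile 13.8, so it was one of the steadier genes of its abundance. Leaving out Cre- replicate 2 gave an exact permutation p of 0.0476 with a plain log2 difference of -0.15, while the adjusted p of the fit was then 0.392. The other 9 such tests, each without 1 library, gave an exact permutation p of 0.103 to 0.23. Without Cre- replicates 3 and 4 the log2 fold change was -0.06 (adjusted p = 0.800, limma), and the remaining 3 Cre- libraries averaged 1494 ± 127 CPM.

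Bace1 encodes the main beta-secretase of the brain, which makes the first cut towards amyloid-beta. The gene is on the plus strand at chr9:45838580-45864399 (ENSMUSG00000032086). It was at 75.6, 89.6, 87.0, 74.6 and 81.9 CPM across BMAL1 aKO replicates 1 to 5, against 93.1, 64.5, 119, 111 and 87.7 CPM across Cre- replicates 1 to 5. The BMAL1 aKO libraries all fell inside the wide Cre- range, which was set by Cre- replicate 2 at the bottom and Cre- replicates 3 and 4 at the top. Group means were 81.7 ± 6.65 CPM in BMAL1 aKO and 94.99 ± 21.3 CPM in Cre- (SD, n = 5 each), so the coefficient of variation was 8.14% and 22.4%. On the log2 scale the fold change was -0.16 (SE 0.09, 95% interval -0.36 to 0.05, adjusted p = 0.519, limma; exact permutation p = 0.286). Cre- replicate 2 decided the plain test: without it the log2 difference was -0.32 (exact permutation p = 0.0159) and the adjusted p of the fit was 0.336, against an exact permutation p of 0.254 to 0.54 without any other single library. Without Cre- replicates 3 and 4, the Cre- mean was 81.8 ± 15.1 CPM (SD, n = 3), and the BMAL1 aKO mean was nearly equal to it. Of the exon bases of Bace1, 15.4% are shared with Rnf214 and 15.0% with Gm49338 on the other strand. The library kit does not mark strand, so reads from the shared bases cannot be assigned by strand. Whether they were counted or dropped is not given in the sources used here.

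Bace2 encodes a related protease that cuts the precursor mostly at other places and is expressed weakly in the cortex. It lies on the plus strand at chr16:97356742-97442936 (ENSMUSG00000040605) and shares no exon bases with another gene. It was at 4.27, 3.62, 2.64, 4.58 and 3.40 CPM across BMAL1 aKO replicates 1 to 5, against 2.38, 4.21, 2.93, 3.08 and 2.74 CPM across Cre- replicates 1 to 5. Replicates 1 and 4 of BMAL1 aKO exceeded the highest Cre- library, Cre- replicate 2, and BMAL1 aKO replicate 3 was next to the lowest of all 10 libraries. The means were 3.70 ± 0.761 CPM in BMAL1 aKO and 3.07 ± 0.691 CPM in Cre- (SD, n = 5 each), a difference of 20.7%. The log2 fold change was 0.37 (SE 0.16, 95% interval 0.02 to 0.72), with an unadjusted p of 0.0391 and an adjusted p of 0.396 (limma). The exact permutation test on the plain log2 means gave a difference of 0.24 and p = 0.206. Each library held 92 to 205 Bace2 reads, and counting alone would give a coefficient of variation of 8.59% in BMAL1 aKO and 9.48% in Cre-, against the observed 20.6% and 22.5%. The fold change ran from 0.20 with Xist, a gene expressed in females, as a covariate to 0.51 without BMAL1 aKO replicate 3. In the latter fit the adjusted p was 0.156, the lowest of any member in any fit. Cre- replicate 1, the lowest library for Bace2, had the largest weight (4.04). Without it the log2 fold change was also 0.20 (adjusted p = 0.899, limma), and without weights it was 0.24 (adjusted p = 0.803, limma).

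Psen2 encodes presenilin 2, a catalytic subunit of gamma-secretase. It is on the minus strand at chr1:180227004-180263438 (ENSMUSG00000010609) and shares no exon bases with another gene. It was at 11.0, 9.64, 10.3, 11.4 and 8.49 CPM across BMAL1 aKO replicates 1 to 5, against 8.63, 7.69, 14.5, 13.9 and 8.50 CPM across Cre- replicates 1 to 5. The Cre- libraries split, with replicates 3 and 4 above every BMAL1 aKO library and the other 3 below 4 of the 5 BMAL1 aKO libraries. The means of 10.2 ± 1.16 CPM in BMAL1 aKO and 10.6 ± 3.26 CPM in Cre- (SD, n = 5 each) nearly coincided. The sign of the difference depended on the weights: the weighted log2 fold change was 0.16 (SE 0.13, 95% interval -0.11 to 0.44, adjusted p = 0.604, limma) and the plain log2 difference -0.02 (exact permutation p = 0.905). Without Cre- replicates 3 and 4, the Cre- mean was 8.27 ± 0.510 CPM (SD, n = 3), the BMAL1 aKO mean was 23.0% above it, and the log2 fold change was 0.24 (adjusted p = 0.454, limma).

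Aph1a encodes an APH1 subunit, which helps to assemble gamma-secretase, and had the widest spread of the 9 genes. It is on the plus strand at chr3:95893969-95898288 (ENSMUSG00000015750). It was at 7.05, 9.11, 6.75, 5.45 and 6.20 CPM across BMAL1 aKO replicates 1 to 5, against 8.20, 5.04, 18.6, 12.2 and 8.01 CPM across Cre- replicates 1 to 5. Every BMAL1 aKO library lay between the lowest Cre- library, replicate 2, and the high Cre- replicates 3 and 4. The means were 6.91 ± 1.37 CPM in BMAL1 aKO and 10.4 ± 5.23 CPM in Cre- (SD, n = 5 each), a difference of -33.6%, and the coefficient of variation was 19.9% and 50.2%. The within-group SD was at percentile 92.2 among the 500 genes nearest in level. The log2 fold change was -0.30 (SE 0.16, 95% interval -0.66 to 0.05, adjusted p = 0.480, limma; exact permutation p = 0.222). Leaving out Cre- replicate 2 gave a log2 difference of -0.66 (exact permutation p = 0.0317, adjusted p of the fit 0.346), against an exact permutation p of 0.175 to 0.429 without any other single library. Leaving out Cre- replicates 3 and 4 gave a Cre- mean of 7.08 ± 1.77 CPM (SD, n = 3), from which the BMAL1 aKO mean differed by -2.42%. Aph1a shares 12.9% of its exon bases with Car14, a carbonic anhydrase gene on the other strand, which was at 2.08 to 4.91 CPM in BMAL1 aKO and 2.11 to 7.81 CPM in Cre- libraries and was also highest in Cre- replicates 3 and 4.

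Ncstn encodes nicastrin, the large subunit with which gamma-secretase receives its substrates. It is on the minus strand at chr1:172066013-172082795 (ENSMUSG00000003458). It was at 44.2, 48.2, 41.1, 31.7 and 30.8 CPM across BMAL1 aKO replicates 1 to 5, against 41.6, 30.9, 61.6, 52.6 and 37.7 CPM across Cre- replicates 1 to 5. As with Aph1a, Cre- replicates 3 and 4 were the 2 highest libraries, and BMAL1 aKO replicate 5 and Cre- replicate 2 were the lowest and nearly equal. The means were 39.2 ± 7.68 CPM in BMAL1 aKO and 44.9 ± 12.2 CPM in Cre- (SD, n = 5 each). This gave a log2 fold change of -0.12 (SE 0.13, 95% interval -0.40 to 0.17, adjusted p = 0.732, limma; exact permutation p = 0.429), and it was -0.02 without Cre- replicates 3 and 4. Ncstn shares 4.91% of its exon bases with Copa on the other strand.

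Psenen encodes PEN-2, the smallest subunit of the complex, which takes part in activating the presenilin. It is on the minus strand at chr7:30561863-30563627 (ENSMUSG00000036835). It was at 17.5, 26.6, 25.6, 29.6 and 31.7 CPM across BMAL1 aKO replicates 1 to 5, against 23.5, 28.02, 23.5, 24.5 and 22.0 CPM across Cre- replicates 1 to 5. Here the BMAL1 aKO group was the wider one: replicates 4 and 5 exceeded the Cre- range and replicate 1 lay below it. The means were 26.2 ± 5.43 CPM in BMAL1 aKO and 24.3 ± 2.26 CPM in Cre- (SD, n = 5 each). In the fit its log2 fold change was 0.18 (SE 0.12, 95% interval -0.07 to 0.43, adjusted p = 0.549, limma; exact permutation p = 0.627). Without BMAL1 aKO replicate 1 the plain log2 difference was 0.22 (exact permutation p = 0.0476) and the adjusted p of the fit 0.338. It was 0.0096 (exact permutation p = 0.976) without BMAL1 aKO replicate 5 and 0.035 (exact permutation p = 0.857) without BMAL1 aKO replicate 4, so single BMAL1 aKO libraries set its size. Psenen shares 9.33% of its exon bases with U2af1l4 and 8.71% with Gm49396, both on the other strand.

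Adam10 encodes the main alpha-secretase of neurons. It is on the plus strand at chr9:70678997-70780229 (ENSMUSG00000054693) and shares no exon bases with another gene. It was at 89.0, 88.4, 97.1, 105 and 94.3 CPM across BMAL1 aKO replicates 1 to 5, against 104, 109.8, 74.8, 85.3 and 99.1 CPM across Cre- replicates 1 to 5. The order of the Cre- libraries was nearly the reverse of that of Bace1, with replicate 2 highest and replicates 3 and 4 lowest of all 10. The means were 94.8 ± 6.81 CPM in BMAL1 aKO and 94.6 ± 14.3 CPM in Cre- (SD, n = 5 each), a difference of 0.178%. The weighted log2 fold change was -0.07 (SE 0.08, 95% interval -0.23 to 0.09, adjusted p = 0.716, limma) and the plain difference 0.01 (exact permutation p = 0.913), of opposite sign. The interval spans 0.851 to 1.07 times the Cre- level. Without Cre- replicates 3 and 4, the Cre- mean was 104 ± 5.36 CPM (SD, n = 3) and the log2 fold change -0.08 (adjusted p = 0.698, limma).

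Adam17 encodes a protease that sheds tumour necrosis factor and many other membrane proteins besides the precursor, and it was the least variable member for its level. It is on the minus strand at chr12:21323509-21373632 (ENSMUSG00000052593). It was at 22.1, 23.9, 21.1, 26.5 and 23.2 CPM across BMAL1 aKO replicates 1 to 5, against 21.4, 24.5, 19.5, 21.2 and 24.0 CPM across Cre- replicates 1 to 5. Only BMAL1 aKO replicate 4 lay outside the Cre- range, above it. The means were 23.4 ± 2.07 CPM in BMAL1 aKO and 22.1 ± 2.09 CPM in Cre- (SD, n = 5 each), and the within-group SD was at percentile 9.80 among the 500 genes nearest in level. Its log2 fold change was 0.07 (SE 0.08, 95% interval -0.11 to 0.25, adjusted p = 0.755, limma; exact permutation p = 0.389), and it was -0.003 without Cre- replicates 3 and 4. Adam17 shares 4.35% of its exon bases with Iah1 on the other strand.

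**Figure D2:**
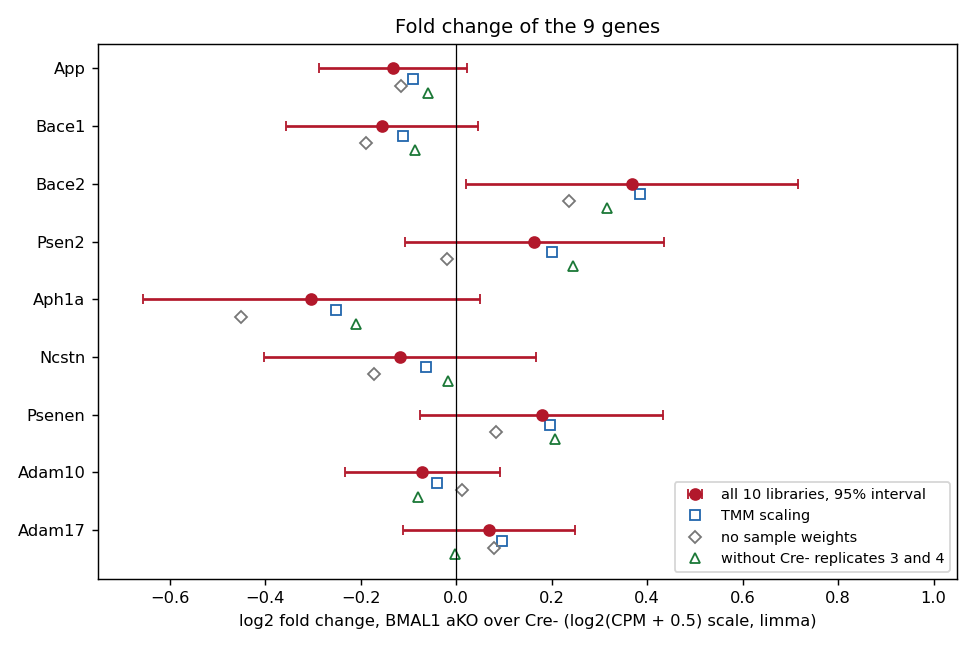
Log2 fold change of each gene, BMAL1 aKO over Cre-, on the log2(CPM + 0.5) scale, with the 95% interval of the limma fit of all 10 libraries (red) and the values under TMM scaling, without sample weights and without Cre- replicates 3 and 4 (open symbols). The interval includes 0 for 8 genes and runs from 0.02 to 0.72 for Bace2, and Psen2, Adam10 and Adam17 change sign in at least 1 of the open symbols.

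For every member, the highest and lowest Cre- libraries differed from each other by more than the group means did. Cre- replicate 3 was the highest and Cre- replicate 4 the next highest of all 10 libraries for Bace1, Psen2, Aph1a and Ncstn, while replicate 3 was the lowest for Adam10 and Adam17. Relative to the mean of the other 9 libraries, Cre- replicate 3 was at 2.46 times for Aph1a, 1.55 times for Ncstn, 1.46 times for Psen2 and 1.402 times for Bace1, and at 0.772 times for Adam10 and 0.844 times for Adam17. Cre- replicate 2, which had the largest share of mitochondrial-encoded reads (19.9%), showed the opposite order, being lowest for Bace1, Psen2 and Aph1a and highest for Adam10. The Aph1a spread was also wide on another scale: rescaled to the reads outside the 16 mitochondrial-encoded genes, Aph1a was at 6.64 to 10.7 in BMAL1 aKO and 6.29 to 19.8 in Cre- libraries, and the highest library was still 3.15 times the lowest, against 3.69 times in CPM. App narrowed on that scale to 1711 ± 88.5 in BMAL1 aKO and 1784 ± 87.5 in Cre- (SD, n = 5 each), and the fold change was -0.09 on the log2 scale (limma, adjusted p = 0.666). Some other markers were high in both Cre- replicates 3 and 4 or in Cre- replicate 3, and others were not. The 5 markers of oligodendrocyte precursors summed to 161 to 199 CPM in BMAL1 aKO libraries, against 227 and 215 CPM in Cre- replicates 3 and 4 and 144 to 161 CPM in the other 3 Cre- libraries. Aldh1l1 was at 32.8 to 44.9 CPM in BMAL1 aKO libraries and at 55.3 and 56.7 CPM in Cre- replicates 3 and 4, although the 12 astrocyte markers together were lowest in Cre- replicate 3 (6508 CPM). The 10 microglial markers summed to 247 to 336 CPM in BMAL1 aKO libraries and 246 to 400 CPM in Cre- libraries. The maximum was in Cre- replicate 3, and Cre- replicate 4 had 299 CPM. Oligodendrocyte markers summed to 4565 and 6467 CPM in Cre- replicates 3 and 4, against 4145 to 5937 CPM in BMAL1 aKO libraries. Endothelial and mural markers summed to 342 and 366 CPM there, against 304 to 387 CPM in BMAL1 aKO libraries. Other libraries also stood apart: the 3 measured choroid plexus markers summed to 1061 CPM in BMAL1 aKO replicate 1 and 929 CPM in Cre- replicate 5. Their sum was 280 CPM in Cre- replicate 4 and 13.8 to 39.5 CPM in the remaining libraries. The part of these differences in the members' levels was not tested.

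**Figure D3:**
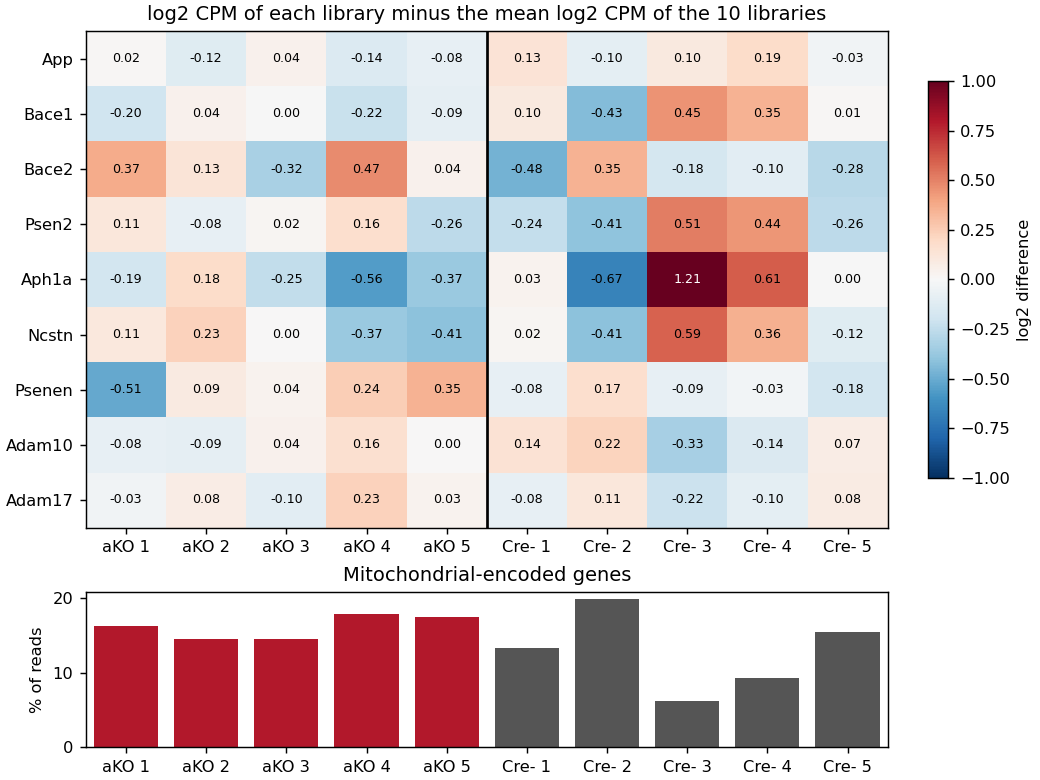
Upper panel, log2 CPM of each gene in each library minus its mean over the 10 libraries, with BMAL1 aKO (aKO) on the left and Cre- on the right. Lower panel, percent of reads from mitochondrial-encoded genes, lowest in Cre- replicates 3 (6.19%) and 4 (9.29%), where Bace1, Psen2, Aph1a and Ncstn are high and Adam10 and Adam17 low.

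Levels were compared between genes per kb of exon (GENCODE M21), as CPM per kb. The length used was all exon bases annotated for a gene, over all its transcripts, and not that of the RNA present in the cortex. The order of the genes and the ratios between them depend on these lengths. App had 110.4 in BMAL1 aKO and 119.7 in Cre- cortex. Psenen followed with 20.6 and 19.1, Adam10 with 19.3 in either group, Bace1 with 12.9 in BMAL1 aKO and 15.0 in Cre-, and Ncstn with 9.87 and 11.3. Adam17 (3.27 and 3.09), Psen2 (2.35 and 2.46) and Aph1a (2.003 and 3.02) were lower, and Bace2 was lowest at 0.470 and 0.389. In Cre- cortex the ranges over libraries overlapped between each pair of neighbours from Psenen to Ncstn and among Adam17, Psen2 and Aph1a. In BMAL1 aKO cortex the range of Adam10 (17.999 to 21.4) lay wholly above that of Bace1 (11.8 to 14.1), and the range of Adam17 (2.95 to 3.71) above those of Psen2 (1.96 to 2.64) and Aph1a (1.58 to 2.64), while Psenen and Adam10, Bace1 and Ncstn, and Psen2 and Aph1a overlapped there too. Bace1 was above Ncstn in each of the 10 libraries. App stood above every other member, and Bace2 below every other member, in all 10 libraries.

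**Figure D4:**
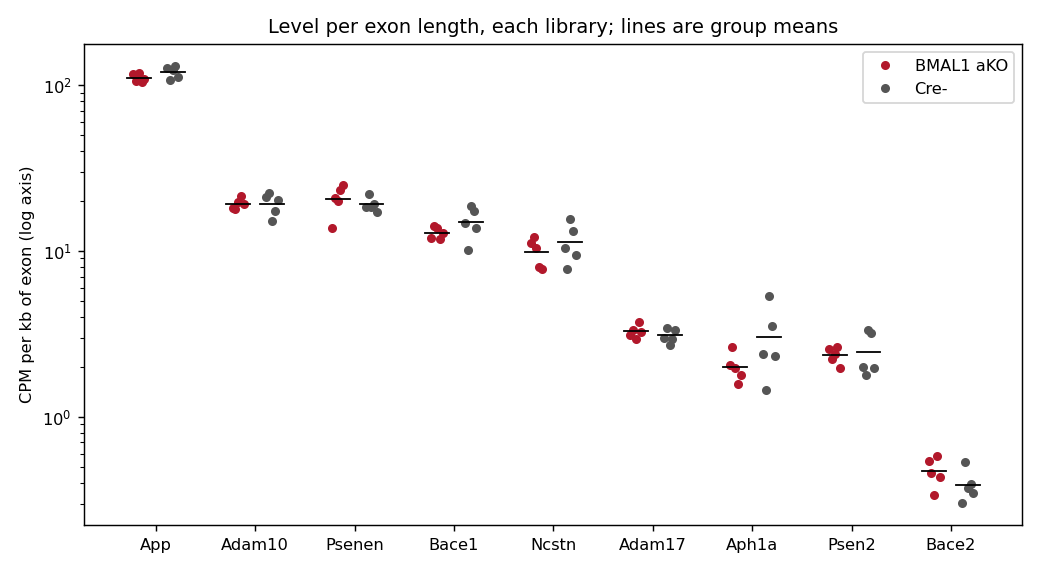
CPM per kb of exon of each gene in each library on a log axis, with BMAL1 aKO (red) left of Cre- (grey) and a line at each group mean. App lies near 110.4 and 119.7, Bace2 near 0.470 and 0.389, and the order of the genes is similar in both groups.

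Ratios of the levels per kb were taken in each library. Their size rests on the annotated exon lengths, which are the same in both groups. The summed alpha-secretases Adam10 and Adam17 were at 1.76 ± 0.231 times Bace1 in BMAL1 aKO and 1.602 ± 0.610 times in Cre- cortex (SD, n = 5 each). Per library this ratio was 1.51 to 2.14 in BMAL1 aKO and 0.957 to 2.54 in Cre-, so the Cre- range contained the whole BMAL1 aKO range. Bace1 exceeded Bace2 by 28.7 ± 8.22 times in BMAL1 aKO and 40.5 ± 12.7 times in Cre-, with ranges of 20.2 to 40.9 and 19.0 to 50.5. App was at 8.61 ± 0.820 times Bace1 in BMAL1 aKO and 8.25 ± 1.48 times in Cre-. Within gamma-secretase, Aph1a was at 0.204 ± 0.0202 times Ncstn in BMAL1 aKO and 0.255 ± 0.0592 times in Cre-, and Ncstn at 4.23 ± 0.873 and 4.65 ± 0.430 times Psen2. All of these ratios overlapped between the groups.

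Because BMAL1 binds E-boxes, the RefSeq windows of GRCm38.p6 around transcription starts, 250 bases before to 50 bases after each start, were searched on both strands for CACGTG, which is its own reverse complement. Of the 9 members, 7 had a window, and 2 of these held the letters, Adam10 and 1 of the 2 starts of Psen2. Of all 32851 windows 7.15% held them, and of the 9727 genes of the table with a window 11.8% did. The stretches before these starts are shown because they are the members' windows with the motif, with the E-box in capitals. The Adam10 stretch is chr9:70678732-70678981 on the plus strand, and its E-box begins 64 bases before the start. The Psen2 stretch is chr1:180245951-180246200 on the minus strand, and its E-box begins 9 bases before the start.
Adam10: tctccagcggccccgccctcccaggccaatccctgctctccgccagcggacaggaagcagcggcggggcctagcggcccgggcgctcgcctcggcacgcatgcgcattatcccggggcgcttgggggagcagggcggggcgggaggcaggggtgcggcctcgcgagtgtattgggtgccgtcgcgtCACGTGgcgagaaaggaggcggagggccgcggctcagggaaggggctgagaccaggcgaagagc
Psen2: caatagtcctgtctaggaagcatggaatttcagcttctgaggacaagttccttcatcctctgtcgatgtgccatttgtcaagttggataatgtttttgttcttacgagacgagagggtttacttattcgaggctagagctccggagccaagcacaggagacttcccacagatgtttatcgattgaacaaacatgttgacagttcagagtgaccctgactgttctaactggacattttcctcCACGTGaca
The bases before the Adam10 start were 74.0% G or C and those before the Psen2 start 44.8%. The match is a description of letters only, and neither gene passed the test between the groups (adjusted p = 0.716 for Adam10 and 0.604 for Psen2, limma).

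No gene of the 5 lists around the pathway was called. The genes named from them were picked for the smallest p of their list, so their permutation p-values are descriptions and no further test. Of the App family and its adaptors, 16 of 17 listed genes were measured and 0 were called by limma or by voomWithQualityWeights, with 3 under an unadjusted p of 0.05 in limma (18.8%, against 11.8% of all genes), 1 by voomWithQualityWeights (1310 of all genes) and 1 without weights (602 of all genes), and a median log2 fold change of -0.04. Itm2b, whose product binds the precursor, had the smallest p of that list, at 658 to 849 CPM in BMAL1 aKO and 455 to 696 CPM in Cre- (log2 fold change 0.22, adjusted p = 0.369, limma). Apba2, an adaptor that binds the tail of the precursor, was at 125 to 164 CPM in BMAL1 aKO and 113 to 213 CPM in Cre- (-0.23, adjusted p = 0.414).

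Of the partners and inhibitors of ADAM10 and ADAM17, 16 of 19 were measured and 0 were called, with a median log2 fold change of -0.07. In limma 2 had an unadjusted p under 0.05 (12.5%, against 11.8% of all genes). By voomWithQualityWeights 2 did, and without weights 1. Tspan17, a tetraspanin that helps ADAM10 out of the endoplasmic reticulum, was at 21.7 to 28.7 CPM in BMAL1 aKO and 15.7 to 22.2 CPM in Cre- (log2 fold change 0.31, adjusted p = 0.306, limma), with an exact permutation p of 0.0238. Adam19, another metalloprotease, was at 12.5 to 17.5 CPM in BMAL1 aKO and 11.3 to 23.1 CPM in Cre- (-0.34, adjusted p = 0.387). Of the genes for traffic and turnover of beta-secretase, all 29 were measured and 0 were called, with a median of -0.05. By voomWithQualityWeights and without weights, 0 had an unadjusted p under 0.05, and in limma 2 did (6.90%, against 11.8% of all genes). These were Rtn3, a reticulon that binds BACE1, at -0.17 on the log2 scale (limma, adjusted p = 0.362), and Rab5a, a GTPase of early endosomes, at -0.19 (adjusted p = 0.371).

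Among partners and modulators of gamma-secretase, 19 of 20 were measured and 0 were called, with a median log2 fold change of -0.08. In limma 4 had an unadjusted p under 0.05 (21.1%, against 11.8% of all genes), 1 higher and 3 lower. By voomWithQualityWeights 3 did (1310 of all 12573 genes), and without weights 2 did (602 of all genes). Ifitm3, an interferon-induced membrane protein that binds gamma-secretase, had the smallest p of this list. It was at 7.15, 6.14, 6.67, 7.61 and 7.67 CPM across BMAL1 aKO replicates 1 to 5, against 5.03, 5.95, 4.26, 4.37 and 5.25 CPM across Cre- replicates 1 to 5. All BMAL1 aKO libraries lay above all Cre- libraries, and groups without overlap were found for 1% of all genes tested. The log2 fold change was 0.44 (SE 0.10, adjusted p = 0.219, limma), and the exact permutation p of 0.00794 is the smallest that 5 against 5 libraries can give. Over the 26 alternative fits the log2 fold change of Ifitm3 was 0.38 to 0.52. Its adjusted p was under the threshold in 1 of them, at 0.0991 without a trend in the variance prior, and reached 0.803 without weights and 0.899 without Cre- replicate 1. Syt1, a synaptic vesicle protein gene that is also on the neuronal marker list, was at 1295 to 1598 CPM in BMAL1 aKO and 1516 to 1686 CPM in Cre- (-0.20, adjusted p = 0.351).

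The other substrates of these secretases were the largest list, with 57 of 62 measured and 0 called. In limma 10 had an unadjusted p under 0.05 (17.5%), 2 higher and 8 lower, with a median log2 fold change of -0.07. By voomWithQualityWeights 6 did, and without weights 2. Of all 12573 genes, 11.8% did in limma (652 higher and 828 lower), with a median of -0.04. By voomWithQualityWeights 1310 of all genes did, and without weights 602. Ptprz1, a receptor phosphatase gene of astrocytes and oligodendrocyte precursors, was at 343, 457, 309, 401 and 305 CPM across BMAL1 aKO replicates 1 to 5, against 277, 261, 301, 268 and 275 CPM across Cre- replicates 1 to 5. These groups also did not overlap, as for 1% of all genes tested. The log2 fold change was 0.35 (SE 0.10, adjusted p = 0.283, limma), with an exact permutation p of 0.00794. Plxna4, a semaphorin receptor gene, was at 108 to 126 CPM in BMAL1 aKO and 110.1 to 159 CPM in Cre- (-0.22, adjusted p = 0.351). By voomWithQualityWeights, and without weights, 0 genes of any of the 5 lists were called.

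The genes whose levels followed App most closely over the 10 libraries were Plcl2 (Pearson's r = 0.963 on log2(CPM + 0.5)), Pcdh7 (r = 0.958) and Sulf2 (r = 0.955), and Gpc5 ran most opposite (r = -0.929). These are the extremes of 12573 genes in 10 libraries that share the groups, and they are given as a description. Plcl2 was at 62.2 to 79.0 CPM in BMAL1 aKO and 66.6 to 85.6 CPM in Cre-. Gpc5 was at 37.2 to 51.5 CPM in BMAL1 aKO and 30.7 to 48.8 CPM in Cre-. None of the 4 passed the test between the groups (adjusted p = 0.357 to 0.486, limma).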

How the data were processed

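Cortical RNA of 5 BMAL1 aKO and 5 Cre- mice was sequenced from cDNA of a low-input kit that does not mark strand. Values are CPM per gene and library as deposited by the authors, after alignment with STAR 2.5.1a to Ensembl GRCm38 and counting with featureCounts 1.4.6-p5, per the labels. The study also used TMM scaling, which the deposited CPM do not hold: columns added up to between 99.1 and 99.3% of what unscaled CPM of a whole library give, whereas TMM factors computed here ran from 0.923 to 1.10. Removal of ribosomal genes was not repeated. The step between values gave whole reads within 0.01 read for 100% of values, and the total of 21844770 to 48295715 reads per library. These reads are inferred from the CPM, so no count model was run on them, and the reads, counting errors and voomWithQualityWeights values given rest on that inference.

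The filter was a level above 1 CPM in 4 or more libraries, which left 12573 of 12575 and all 9 members. Values were taken as log2(CPM + 0.5), a scale that understates changes of low genes, and entered limma 3.58.1 (R 4.3.3), with a quality weight for each library, a variance prior with a trend on level and Benjamini-Hochberg adjustment over all genes (threshold 0.1). For each member, the plain mean log2 values were compared by an exact permutation test (two-sided, 252 splits), whose smallest p is 0.00794, with no adjustment over the members. Intervals are at 95%. The labels name the replicates only as separate samples and the study calls the mice littermates. Alternatives were pseudocounts, filters, weights, scalings, voomWithQualityWeights on recovered reads, a replicate block, an Xist covariate, the threshold and each library left out. After seeing the data 3 more were chosen: TMM scaling without weights, Cre- replicates 3 and 4 left out, and scaling to reads outside mitochondrial-encoded genes. The fit was tested on simulated data with equal variability in every library. That test does not cover deviating libraries such as Cre- replicates 3 and 4.

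The members and lists were chosen with earlier results of these data known. Named genes are the 9 members, from each pathway list the genes called or the 2 with the smallest p, Arntl and Aldh1l1, and the 3 genes most and 1 gene least like App; Fabp7 was added because of its known values. Aldh1l1, which drives Cre, differed by -0.07 on the log2 scale (limma, adjusted p = 0.825). Positions and exons are from GENCODE M21 (GRCm38) and promoter windows from RefSeq (GRCm38.p6). Python 3.11.15 was also used. Genes outside these lists are not described singly, except those sharing exon bases with a member. All genes kept entered the fits, the shares over all genes, the comparisons by level and the search for genes like App.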

Additional observations from a re-analysis of the deposited data

How the results depend on the processing

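The count of members called was 0 in the fit as reported and in all 26 alternative fits and at a threshold of 0.05. Across them the log2 fold change stayed below 0 for App (-0.18 to -0.06), Bace1 (-0.25 to -0.06) and Aph1a (-0.50 to -0.18) and above 0 for Bace2 (0.20 to 0.51) and Psenen (0.08 to 0.28). Bace2 could not be tested with the filter above 5 CPM. With Xist as a covariate, the log2 fold change was -0.09 for App, -0.06 for Bace1, 0.20 for Bace2 and 0.18 for Psen2. It was -0.18 for Aph1a, -0.02 for Ncstn, 0.16 for Psenen, -0.09 for Adam10 and 0.02 for Adam17. Xist is expressed in females, and the part of sex in these differences was not tested. The number of all genes called, 21 as reported, was 4 without weights, also with TMM scaling, 42 with weights by REML, 9 with the Xist covariate, 11 at a threshold of 0.05, and 1 (without Cre- replicate 1) to 72 (without BMAL1 aKO replicate 3) with single libraries left out. It was also 5 without Cre- replicate 2 or 5, 8 without BMAL1 aKO replicate 4 and 13 without BMAL1 aKO replicate 1 or 2. Under the replicate block it was 5, with 0 members. Libraries with the same number in both groups deviated with r = -0.63 to 0.36 across genes over 5 pairs. Only 1 library correlated best with its own number. Whether the numbers mark a shared litter or batch cannot be told from these values.

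Signs turned as follows, with an adjusted p of 0.902 or more in each fit that turned one, and the cause was not tested. Without weights the log2 fold change was -0.020 for Psen2 and 0.013 for Adam10, and with TMM scaling without weights 0.064 for Adam10. Without Cre- replicates 3 and 4 it was -0.0029 for Adam17. With single libraries left out it ran from -0.049 to 0.22 for Psen2, -0.26 to 0.0030 for Ncstn and -0.11 to 0.017 for Adam10. The plain log2 difference of Psen2, -0.02 as reported, was 0.030 under TMM, 0.028 under median-of-ratios and 0.012 under quantile scaling. With single libraries left out it ran from -0.12 to 0.099 for Psen2 and -0.067 to 0.070 for Adam10. A quasi-likelihood count test on recovered reads was planned and was not run. Bace2, at 92 to 205 reads per library, is the member whose precision depth limits most.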
